A study of Mus musculus with 8 samples.

Results

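Starved MLP-29 cells that had been in hepatocyte growth factor (HGF) for 6 h were compared with cells in control medium, across every gene that was detected on both arrays of either group. Of 16593 genes with a named probe, 7940 met that rule, and 8183 were tested in the whole series. A probe counted as detected where its signal exceeded that of the array's own negative control beads at p under 0.05. MLP-29 is an established line of mouse liver progenitor cells. The labels describe growth in DMEM with serum, gradual serum withdrawal over 1 week, and then HGF for 1, 6 or 24 h or control medium, always with 2% bovine serum. All cultures were lysed together, and the experiment was repeated to give biological replicates a and b, so that each of the 4 groups held 2 arrays. The control cells shared the starvation and the serum with the treated cells and had no time point of their own, so that handling at the start of stimulation and HGF cannot be told apart.

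HGF is the ligand of Met, a receptor tyrosine kinase of epithelial cells. Bound Met signals through the Ras and MAP kinase, PI3 kinase and STAT pathways, and epithelial cells scatter, divide, degrade matrix or form tubules in response. In the liver, the factor comes from non-parenchymal cells and acts on hepatocytes and progenitor cells during regeneration.

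RNA was read on 1-colour Illumina mouse bead arrays, and the authors' raw intensity was background corrected, quantile normalized and put on a log2(corrected signal + 16) scale, on which the change of a dim gene is understated. Of 25697 probes, 11569 to 11893 were detected per array. Across the genes tested, the control arrays correlated with each other at 0.991 and the 6 h arrays at 0.990, while a control and a 6 h array correlated at 0.965 to 0.970. The cell type of the label was checked on marker genes. Of 22 markers of liver progenitor and biliary cells on the array, 16 were detected, among them the keratin genes Krt7, Krt8, Krt18 and Krt19, the cadherin gene Cdh1 and the transcription factor gene Sox9. The summed signal of the detected ones was 133154 to 152338 in control cells and 134896 to 140023 at 6 h. Bright genes weigh most in that sum. The median log2 change of the 16 was -0.23, with 4 above 0 and 12 below. Hepatocyte genes were mostly below detection (5 of 27 detected, Ass1, Hnf4a and Hpx among them, with Alb, Apoa1 and Ttr undetected). Hnf4a is on both lists. The markers named are examples, and undetected progenitor and biliary markers are not named. Of 24 markers of blood, endothelial and stellate cells 1 was detected, Cd14, at 13.82 and 13.85 on control arrays a and b and 13.32 and 13.27 on 6 h arrays a and b, while Ptprc, Adgre1, Pecam1 and Pdgfrb were detected on both arrays of neither group. The call of Cd14 was lost with a single array left out (control array a or b or 6 h array b), at an adjusted p of up to 0.0687.

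After 6 h, 754 of the 7940 genes were higher and 989 were lower than in control cells, where a gene was called at p under 0.05 in limma after Benjamini-Hochberg adjustment over all 8183 genes. Over all genes tested, 757 (9.25%) were called higher, 992 (12.1%) lower and 1749 (21.4%) either way. The median change of the 7940 genes was -0.03 on the log2 scale, and 5th to 95th percentiles ran from -0.91 to 0.77. Called genes had a median of 0.75 where higher and -0.77 where lower, beside a median difference of 0.178 between the 2 control arrays and 0.175 between the 2 arrays at 6 h. At least 2-fold changes were called for 195 higher genes (2.38% of those tested) and 285 lower ones (3.48%). Past 4-fold there were 32 higher and 17 lower genes, and past 8-fold 11 and 3. In bulk RNA, fewer cells with a transcript and less of it per cell cannot be told apart.

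The count of rises depended on how the arrays were scaled. Rises made up 43.3% of the calls with quantile normalization and 25.1% with plain median scaling (322 higher and 963 lower), under which the median of all genes lay at -0.16 in place of -0.03. Directions below are therefore relative to the bulk of genes. Counts of a gene list are given with median scaling where they moved by over 1.5 times, but moves of counts of 2 or fewer are not all given. The rises of the cilium list, for example, went from 2 to 1. Leaving out 1 of the 4 arrays compared gave 380 to 443 higher and 474 to 562 lower genes, fewest rises without 6 h array b and fewest falls without control array a. The arrays of the 2 groups did not overlap for many more genes than were called. Both 6 h arrays lay above both control arrays in 2284 of the 7940 genes and below them in 2700, beside 28.3% and 33.4% of all genes tested.

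**Figure D1:**
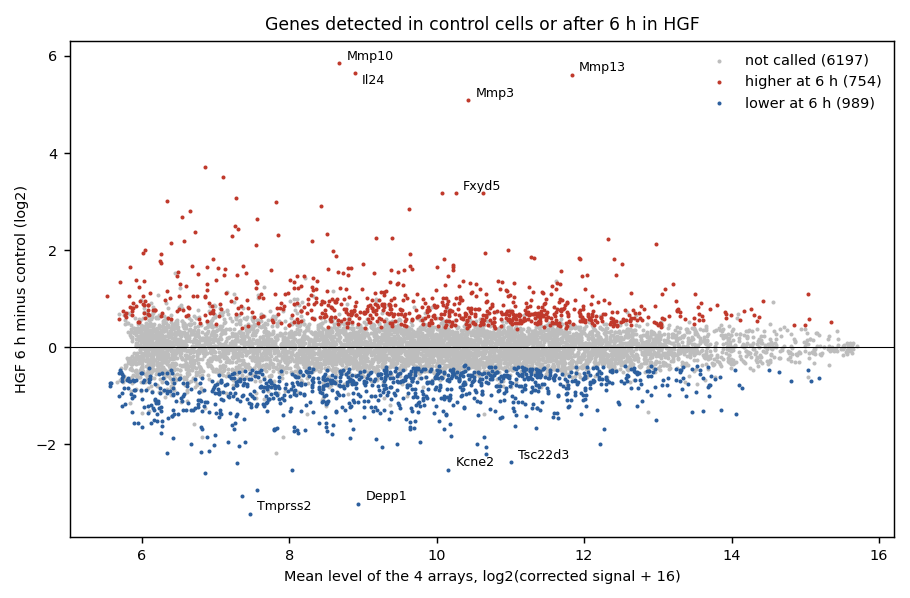
Each point is 1 of the 7940 genes, with the mean level of the 4 arrays on the x axis and the difference between HGF 6 h and control on the y axis, both on the log2(corrected signal + 16) scale. Called genes occur along the whole range of levels, and Mmp10, Il24, Mmp13 and Mmp3 stand above all others at 5.09 to 5.85.

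Calls were spread over the range of signal. Of the 2647 dimmest genes 21.3% were called, of the 2646 genes in the middle 23.5%, and of the 2647 brightest 21%. Rises and falls were close in number among the brightest (275 and 280), while falls outnumbered rises among the dimmest (365 and 200). The median standard error fell from 0.198 in the dimmest to 0.135 in the brightest group.

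Among the steepest rises were those of secreted proteases that cleave extracellular matrix. Mmp10 and Mmp3 encode stromelysins, which degrade proteoglycans and activate other metalloproteinases, and Mmp13 encodes a collagenase. The Mmp3 probe read 7.95 and 7.83 on control arrays a and b and 12.70 and 13.25 on 6 h arrays a and b. Its rise (log2 5.09 ± 0.20, adjusted p = 0.000115) was far larger than the distance between replicates. Mmp10 read 5.99 and 5.51 on control arrays a and b and 11.50 and 11.70 on 6 h arrays a and b, was detected on 1 of the control arrays, and rose (log2 5.85 ± 0.28, adjusted p = 0.000199). Mmp13 read 8.44 and 9.62 on control arrays a and b and 14.51 and 14.77 on 6 h arrays a and b, so that the control arrays lay further apart than the treated ones, and it rose as well (log2 5.61 ± 0.69, adjusted p = 0.00242). The other kept probes of Mmp3 gave 5.49 and 5.47, while those of Mmp13 gave 5.70 and 1.95, so the size of the Mmp13 change depends on the probe.

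These 3 genes lie in 1 run of neighbouring metalloproteinase genes on mouse chromosome 9, in which 9 of 10 genes had a probe and 4 were detected. The fourth detected gene, Mmp1a, gave 0.10 ± 0.18 and was not called, and Mmp12, Mmp1b, Mmp8, Mmp20 and Mmp7 did not meet the detection rule in either group. The promoters of the 3 genes that rose each hold 1 exact copy of the AP-1 site TGAGTCA, the sequence bound by Fos and Jun dimers. They are shown here from 250 bases before to 50 bases after the annotated start, as RefSeq gives them for GRCm38.p6, on the plus strand, with the site in capitals.
Mmp3 (chr9:7445572-7445871): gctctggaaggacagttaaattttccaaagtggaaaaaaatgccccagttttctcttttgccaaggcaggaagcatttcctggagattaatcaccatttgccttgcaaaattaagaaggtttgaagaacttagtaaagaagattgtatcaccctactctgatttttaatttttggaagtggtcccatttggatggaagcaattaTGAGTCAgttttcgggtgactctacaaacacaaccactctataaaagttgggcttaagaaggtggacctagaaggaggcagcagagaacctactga
Mmp10 (chr9:7502092-7502391): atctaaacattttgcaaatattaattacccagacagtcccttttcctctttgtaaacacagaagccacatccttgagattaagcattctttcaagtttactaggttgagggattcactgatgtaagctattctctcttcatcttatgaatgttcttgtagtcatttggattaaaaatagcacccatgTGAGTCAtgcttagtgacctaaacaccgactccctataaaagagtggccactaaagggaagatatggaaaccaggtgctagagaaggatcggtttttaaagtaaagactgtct
Mmp13 (chr9:7272264-7272563): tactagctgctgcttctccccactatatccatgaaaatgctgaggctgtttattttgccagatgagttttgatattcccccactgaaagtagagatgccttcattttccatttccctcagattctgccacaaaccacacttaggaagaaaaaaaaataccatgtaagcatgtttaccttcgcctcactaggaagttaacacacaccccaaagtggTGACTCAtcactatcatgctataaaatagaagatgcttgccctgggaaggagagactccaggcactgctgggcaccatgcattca
The site begins 46 bases before the start in Mmp3, 63 in Mmp10 and 35 in Mmp13, and in Mmp13 it reads on the opposite strand, as TGACTCA. Of all 32851 promoters of this length in the table, 5.20% hold the site on either strand. A match is a description of the letters and does not show that a factor was bound.

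Over the whole list of metalloproteinases and their inhibitors, these 3 included, 9 of 15 detected members rose (60%) and 1 fell (6.67%), with a median log2 change of 0.75. The gelatinase gene Mmp9 was undetected in control cells and rose at least 1.62-fold, and the sheddase gene Adam8 rose (log2 1.05 ± 0.17, adjusted p = 0.00705). Mmp24, a membrane-anchored member, rose too (log2 1.68 ± 0.27, adjusted p = 0.00606), with 1 control array below detection. Timp1, the gene of a tissue inhibitor of metalloproteinases, read 11.18 and 11.25 on control arrays a and b and 13.30 and 13.59 on 6 h arrays a and b and rose (log2 2.23 ± 0.14, adjusted p = 0.00059), while the inhibitor genes Timp2 and Timp3 were at -0.20 ± 0.12 and 0.24 ± 0.27 and were not called. The 1 fall of the list was Mmp11 (-0.58 ± 0.13). The call of Mmp11 was lost with a single array left out (control array a or b or 6 h array a), at an adjusted p of up to 0.0981.

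Several genes of the plasminogen system were higher too. Plau, the gene of urokinase, which turns plasminogen into plasmin, was undetected in control cells (4.95 and 5.13 on control arrays a and b and 7.10 and 6.86 on 6 h arrays a and b) and rose at least 2.14-fold (adjusted p = 0.000786). Its receptor gene Plaur rose (log2 1.30 ± 0.14, adjusted p = 0.00171), and so did the serine protease gene Prss22 (log2 1.46 ± 0.16, adjusted p = 0.00183). Serpinb2, which encodes an inhibitor of urokinase, was undetected in control cells and rose at least 3.92-fold. Over the list of proteases and serpins, 5 of 14 detected members rose (35.7%) and 2 fell (14.3%), with a median log2 change of 0.27. The steepest fall of the list was that of Tmprss2, a transmembrane serine protease gene, which read 9.72 and 8.64 on control arrays a and b and 5.98 and 5.52 on 6 h arrays a and b, so that 1 of the 6 h arrays was below detection. With a single array left out, the call of Tmprss2 was lost without control array a or 6 h array b. That of Serpinb1a, the other fall, was lost without control array a or b or 6 h array b.

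Beside the proteases, the 12 steepest rises held chemokine, ligand and epithelial genes. These rises were taken from genes detected on all 4 arrays whose 2 groups did not overlap. Ppbp, which encodes a neutrophil-attracting CXC chemokine, read 9.34 and 8.73 on control arrays a and b and 12.22 and 12.22 on 6 h arrays a and b and rose (log2 3.19 ± 0.41, adjusted p = 0.00265). Its neighbour Cxcl5 rose as well (1.93 ± 0.29), while Cxcl1, another gene of that cluster, was not called (0.93 ± 0.36). Fxyd5, the gene of dysadherin, a modulator of the sodium pump that lowers cell adhesion, read 8.63 and 8.73 on control arrays a and b and 11.61 and 12.08 on 6 h arrays a and b. Its rise (log2 3.17 ± 0.22, adjusted p = 0.000639) was seen by the other kept probes as well, at 2.80 and 3.63. Wnt7a, a secreted Wnt ligand, read 7.95 and 8.45 on control arrays a and b and 10.92 and 11.18 on 6 h arrays a and b and rose (log2 2.85 ± 0.30, adjusted p = 0.00165). Btc, the gene of the EGF receptor ligand betacellulin, read 5.99 and 6.18 on control arrays a and b and 8.79 and 8.24 on 6 h arrays a and b and rose (log2 2.43 ± 0.31, adjusted p = 0.0026). Rapgef3, which encodes a cyclic AMP activated exchange factor of Rap GTPases, rose (2.30 ± 0.25), as did Ramp3, a gene of an accessory protein of the adrenomedullin receptor (2.34 ± 0.36).

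Havcr2, known as an immune checkpoint receptor of T cells and myeloid cells, read 5.92 and 6.56 on control arrays a and b and 8.73 and 9.02 on 6 h arrays a and b and rose (log2 2.64 ± 0.27, adjusted p = 0.00144). Mrc1, the macrophage mannose receptor gene, was below detection in control cells (5.65 and 5.30 on control arrays a and b and 7.63 and 7.71 on 6 h arrays a and b) and rose at least 3.44-fold. In the same arrays, 23 of the 24 markers of blood, endothelial and stellate cells did not meet the detection rule in either group, Ptprc, Adgre1 and Lyz2 included. S100a7a, Sprr2d and Sprr2e, genes of epithelial surface proteins, were among the steepest rises at 2.91 to 3.18, with replicates more than 1 log2 unit apart at 6 h. With a single array left out, the call of S100a7a was lost without control array a or 6 h array b. That of Sprr2d was lost without control array b, and that of Sprr2e without control array b or 6 h array b.

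**Figure D2:**
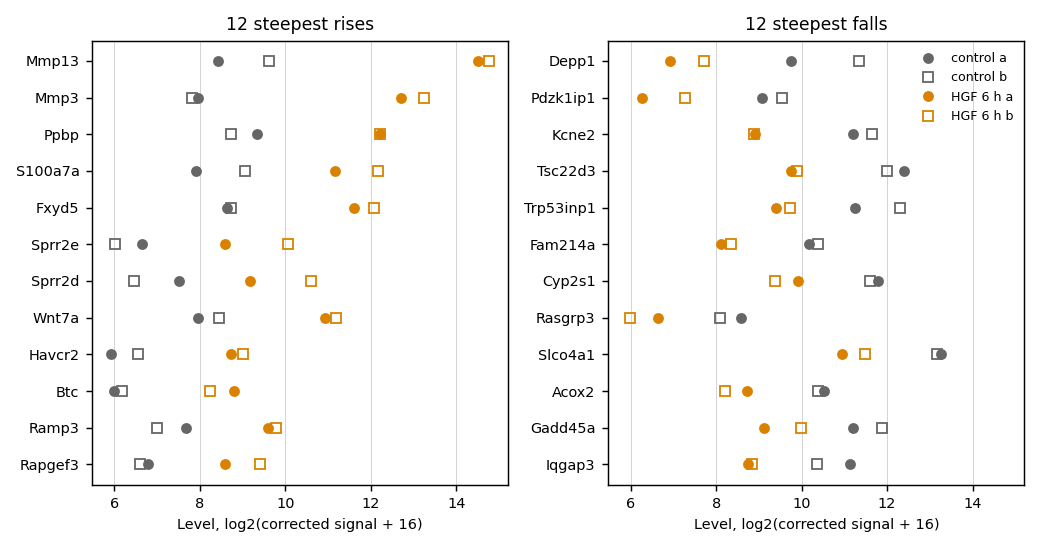
Levels on the 2 control arrays (grey) and the 2 arrays at 6 h (orange) for the 12 steepest rises and the 12 steepest falls among called genes detected on all 4 arrays, with the level on the log2(corrected signal + 16) scale on the x axis. Only genes whose 2 groups did not overlap were taken, so the groups lie apart in every row by that choice. The replicates of S100a7a, Sprr2d, Sprr2e and Depp1 are further apart than most.

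Of the 7940 genes, 76 were undetected on both control arrays, and 46 of these were called higher. Those with the largest bounds were the cytokine gene Csf2, which encodes GM-CSF, at least 7.79-fold, and Pbp2, a gene of the phosphatidylethanolamine binding protein family, at least 7.63-fold. The Csf2 probe read 5.18 and 5.51 on control arrays a and b and 8.49 and 9.20 on 6 h arrays a and b, and the Pbp2 probe 5.84 and 5.65 on control arrays a and b and 8.86 and 8.77 on 6 h arrays a and b. Akap12, a scaffold of protein kinase A and C, read 4.91 and 5.08 on control arrays a and b and 8.48 and 8.94 on 6 h arrays a and b and rose at least 7.08-fold. Igfbp3, which encodes a binding protein of insulin-like growth factors, rose at least 4.48-fold, Clip4 at least 4.05-fold, Nppb, the gene of a natriuretic peptide, at least 3.98-fold, and the transcription factor gene Egr2 at least 3.01-fold. Arap3, at least 2.61-fold, completed the 10 largest bounds. The call of Arap3 was lost with a single array left out (control array a or b or 6 h array a or b), at an adjusted p of up to 0.0795. The other 9, Mrc1 and Serpinb2 included, kept their call with each array left out in turn.

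Among cytokines, chemokines and targets of NF-kB, 13 of 39 detected members rose (33.3%) and 4 fell (10.3%), with a median log2 change of 0.36. With median scaling 11 rose and 2 fell, rises were fewest, 6, without control array a or 6 h array b, and falls were fewest, 0, without control array a or 6 h array b. Il24, a cytokine gene of the interleukin-10 family, read 6.33 and 5.81 on control arrays a and b and 11.75 and 11.68 on 6 h arrays a and b. Its change (log2 5.65 ± 0.33, adjusted p = 0.000379) was next in size to that of Mmp10, with 1 of the control arrays below detection. Il11 (log2 2.50 ± 0.25, adjusted p = 0.00147) and Lif (log2 1.49 ± 0.17, adjusted p = 0.00199), both of which encode cytokines that signal through gp130, rose too, although of the 2 other kept probes of Lif 1 gave 1.81 and 1 gave 0.53 and was not called. The falls were those of Nfkb2 (-0.70 ± 0.19), a subunit of NF-kB, Il18 (-1.04 ± 0.29), Bcl3 (-0.63 ± 0.18) and Birc2 (-0.50 ± 0.15). All 4 of these calls were lost with a single array left out. For Nfkb2 this was control array a or b or 6 h array a or b, and for Bcl3 these or 24 h array a or b. For Il18 it was control array a or b, 6 h array b or 24 h array a or b. For Birc2 it was control array a or either array of 1, 6 or 24 h. With median scaling, Nfkb2, Bcl3 and Birc2 were not called either.

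Growth factor genes changed in both directions. Of the ligands and receptors, 9 of 27 detected members rose (33.3%) and 4 fell (14.8%), with a median log2 change of 0.11. Under median scaling the list's median was -0.04. Ligands of the EGF receptor family were among the rises: Hbegf (log2 2.00 ± 0.19, adjusted p = 0.00126) and Btc (above) both rose, and so did the receptor gene Egfr (0.92 ± 0.23). Mst1r, the gene of the Met-related receptor Ron, read 8.46 and 8.31 on control arrays a and b and 9.96 and 9.89 on 6 h arrays a and b and rose (log2 1.54 ± 0.13, adjusted p = 0.00104), as did Ghr, the growth hormone receptor gene (1.84 ± 0.24). Met itself read 8.32 and 7.68 on control arrays a and b and 8.29 and 8.24 on 6 h arrays a and b and was not called (0.27 ± 0.23). Falls were those of Vegfb (log2 -1.38 ± 0.13, adjusted p = 0.00126), an angiogenic factor of the VEGF family, the FGF receptor gene Fgfr2 (log2 -1.31 ± 0.14, adjusted p = 0.00151), Fgf1 (log2 -1.76 ± 0.25, adjusted p = 0.00438) and Pdgfc (-1.13 ± 0.21). With a single array left out, the call of Pdgfc was lost without 6 h array b. That of Egfr was lost without control array a or 6 h array a or b. Egfr was not called when the kept probes of a gene were averaged either.

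Feedback genes of MAP kinase and receptor signalling were called higher more often than lower. Of 33 detected members of the list, 10 rose (30.3%) and 2 fell (6.06%), with a median log2 change of 0.35, beside 9.25% and 12.1% of all genes tested. With median scaling 10 rose and 4 fell and with the replicate letter as a block 11 rose and 4 fell. Errfi1, which encodes an inhibitor of the EGF receptor, read 11.74 and 12.07 on control arrays a and b and 14.02 and 14.04 on 6 h arrays a and b. It rose (log2 2.13 ± 0.16, adjusted p = 0.000786), as did Lrig1 (1.16 ± 0.13), another negative regulator of that receptor, the phosphatase gene Dusp14 (1.28 ± 0.14) and Phlda1 (1.20 ± 0.12). Gab1, an adaptor that docks to Met, was lower (-0.56 ± 0.12), and so was the phosphatase gene Dusp16 (-0.97 ± 0.21). With a single array left out, the call of Gab1 was lost without control array a or b or 6 h array a. That of Dusp16 was lost without control array a or b or 6 h array a or b. In the list of immediate early transcription factors, 9 of 26 detected members rose (34.6%) and 5 fell (19.2%), with a median log2 change of 0.34. Falls were fewest, 1, without 6 h array b. Fosl1 (log2 2.26 ± 0.21, adjusted p = 0.00126), Csrnp1 (1.99 ± 0.18), Ccn1 (1.10 ± 0.12), which is a matricellular protein gene, and Jun (log2 1.63 ± 0.29, adjusted p = 0.00886) rose. Fos (0.72 ± 0.44) and Fosb (0.40 ± 0.30) were not called at this time. Atf3, a stress-induced transcription factor gene, read 6.74 and 8.13 on control arrays a and b and 5.22 and 5.29 on 6 h arrays a and b, and thus was below detection at 6 h and at least 2.87-fold lower, while Klf4 (log2 -1.17 ± 0.15, adjusted p = 0.00297) and Jund (-1.15 ± 0.21) also fell. With a single array left out, the call of Atf3 was lost without control array b or 6 h array a or b. That of Jund was lost without control array a or 6 h array b. Klf4 was not called when the kept probes of a gene were averaged.

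Genes of secreted morphogens were part of the rises. Over TGF-beta, BMP, Wnt and Notch genes, 6 of 35 detected members rose (17.1%) and 2 fell (5.71%), with a median log2 change of -0.06. With median scaling 3 rose and 1 fell, with the replicate letter as a block 6 rose and 5 fell, and rises were fewest, 3, without control array b or 6 h array b. Besides Wnt7a, the ligand gene Wnt7b (log2 1.26 ± 0.17, adjusted p = 0.00314) and Inhba (log2 1.60 ± 0.20, adjusted p = 0.0026), which encodes the subunit of activin A, rose, and Tgfb1 gave 0.72 ± 0.14. Id3, a target of BMP signalling, fell (-1.25 ± 0.31). With a single array left out, the call of Tgfb1 was lost without control array b or 6 h array b. That of Id3 was lost without control array a or b or 6 h array b. With median scaling Tgfb1 was not called.

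The adhesion and matrix lists held more rises than falls, with 25.6% and 29.6% of their detected members higher, beside 9.25% of all genes tested. Of integrin and focal adhesion genes, 10 of 39 detected members rose (25.6%) and 2 fell (5.13%), with a median log2 change of 0.31. Rises were fewest, 4, without control array a. Cd44, the hyaluronan receptor gene, which can act as a co-receptor of Met, read 11.36 and 11.23 on control arrays a and b and 12.88 and 12.67 on 6 h arrays a and b. It rose (log2 1.48 ± 0.15, adjusted p = 0.00137) together with the integrin genes Itga6 (log2 1.48 ± 0.18, adjusted p = 0.00243), which encodes a laminin receptor subunit, and Itgav (log2 1.25 ± 0.21, adjusted p = 0.00748), while Itgb7 fell (log2 -1.25 ± 0.16, adjusted p = 0.00268). Among collagens, laminins and other matrix proteins, 8 of 27 detected members rose (29.6%) and 2 fell (7.41%), with a median log2 change of 0.00. With median scaling 4 rose and 1 fell and rises were fewest, 4, without 6 h array b. Col7a1, the anchoring fibril collagen (log2 1.31 ± 0.14, adjusted p = 0.0016), Ltbp1 (0.96 ± 0.11), which binds latent TGF-beta, Col5a1 (0.99 ± 0.16) and Col18a1 (0.72 ± 0.11) rose.

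Guidance receptors with large rises were Nrp1, the neuropilin receptor of semaphorins and VEGF, which read 10.99 and 11.04 on control arrays a and b and 12.99 and 12.70 on 6 h arrays a and b (log2 1.84 ± 0.16, adjusted p = 0.00108), and Epha2, an ephrin receptor (log2 1.60 ± 0.22, adjusted p = 0.0037). Of the whole list of guidance ligands and receptors, 4 of 23 detected members rose (17.4%) and 2 fell (8.7%), with a median log2 change of 0.14. With median scaling 2 rose and 2 fell and rises were fewest, 2, without 6 h array b. The median was -0.02 with median scaling. Sema4g fell (-1.95 ± 0.42). The call of Sema4g was lost with a single array left out (control array a or 6 h array b), at an adjusted p of up to 0.0915. In the list of junction, desmosome and keratin genes, 4 of 33 detected members rose (12.1%) and 2 fell (6.06%), with a median log2 change of 0.09. With median scaling 1 rose and 2 fell, with the replicate letter as a block 9 rose and 4 fell, and rises were fewest, 1, without control array b or 6 h array a. Its median also changed sign with median scaling (-0.02). Krt80, a keratin of differentiating epithelia, rose (log2 0.92 ± 0.13, adjusted p = 0.00362), while the tight junction gene Tjp3 fell (-1.10 ± 0.22). The call of Tjp3 was lost with a single array left out (control array a or b or 6 h array a), at an adjusted p of up to 0.0624. Among mesenchymal transition genes, 4 of 14 detected members rose (28.6%) and 0 fell (0%), with a median log2 change of 0.29, and these were Itgb6 (0.85 ± 0.16), Vim (0.74 ± 0.15), which encodes an intermediate filament of mesenchymal cells, Snai3 (0.95 ± 0.18) and Zeb1 (0.53 ± 0.13), a repressor of epithelial genes. All 4 calls were lost without control array a. Left out singly, 6 h array a also ended the call of Itgb6, and 6 h array b those of Snai3 and Vim. For Zeb1, control array b and 6 h array a or b did so too. Rises were fewest, 0, without control array a. With median scaling Zeb1 was not called.

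The Sprr genes of the cornified envelope of squamous epithelium did not move together. In 1 run of Sprr genes on chromosome 3, 10 of 13 genes had a probe and 6 were detected. Sprr2d, Sprr2e and Sprr2k (log2 1.65 ± 0.27, adjusted p = 0.00722) rose, Sprr2a1 fell (-0.64 ± 0.14), and Sprr1a and Sprr1b were not called. The Sprr2 genes are near-identical copies, so a probe of 1 may also read another. The call of Sprr2a1 was lost with a single array left out (control array b or 6 h array a), at an adjusted p of up to 0.0953. The AP-1 site above occurs in promoters of Sprr2d, Sprr2e and Sprr2k, which rose, and of Sprr1a, which was not called. In the cornified envelope list, 6 of the 17 detected genes with a promoter held it, beside 5.95% of all genes. Of the 6, 3 rose, and Sprr1a, Muc13 and S100a11 were not called. Over this list, 7 of 26 detected members rose (26.9%) and 1 fell (3.85%), with a median log2 change of -0.04, so that the median did not follow the steep members. With the replicate letter as a block 8 rose and 3 fell and rises were fewest, 3, without control array b or 6 h array b.

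Genes that build ribosomes rose in larger number than any other list shown. Of 60 detected members of the list, 29 rose (48.3%) and 1 fell (1.67%), with a median log2 change of 0.49, beside 9.25% and 12.1% of all genes tested. With median scaling 9 rose and 0 fell and rises were fewest, 17, without 6 h array a or b. Members included Gar1 (log2 0.94 ± 0.12, adjusted p = 0.00242), a protein of the H/ACA particles that guide pseudouridylation, Nop56 (log2 1.00 ± 0.14, adjusted p = 0.0037), a core protein of the box C/D particles that guide methylation of ribosomal RNA, Rrp15 (0.92 ± 0.11) and Lyar (0.99 ± 0.14). Gar1 read 12.85 and 12.71 on control arrays a and b and 13.71 and 13.74 on 6 h arrays a and b, and the 2 groups did not overlap. The proteins of the ribosome itself stayed near 0: of the cytosolic ribosomal proteins, 1 of 54 detected members rose (1.85%) and 0 fell (0%), with a median log2 change of -0.03, and of the mitochondrial ones, 3 of 71 detected members rose (4.23%) and 1 fell (1.41%), with a median log2 change of 0.15. For the mitochondrial ones, with median scaling 0 rose and 1 fell, with the replicate letter as a block 5 rose and 2 fell, and rises were fewest, 0, without 6 h array b. Mrps6 was the exception that fell, by a clear margin (log2 -1.37 ± 0.14, adjusted p = 0.00144). Over subunits of RNA polymerases I and III, 5 of 24 detected members rose (20.8%) and 1 fell (4.17%), with a median log2 change of 0.01. With median scaling 0 rose and 1 fell and rises were fewest, 0, without 6 h array a.

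Precursor and transport genes for growth gave a mixed picture. In nucleotide, polyamine and one-carbon synthesis, 10 of 28 detected members rose (35.7%) and 3 fell (10.7%), with a median log2 change of 0.10. With median scaling 3 rose and 4 fell, with the replicate letter as a block 10 rose and 5 fell, rises were fewest, 3, without 6 h array b, and falls were fewest, 1, without 6 h array a. Umps (log2 1.02 ± 0.15, adjusted p = 0.00448), which makes uridine monophosphate, and Odc1 (log2 0.91 ± 0.14, adjusted p = 0.00614), the entry enzyme of polyamine synthesis, rose, while Sat1 (log2 -0.99 ± 0.17, adjusted p = 0.00738), which acetylates polyamines for breakdown and export, fell. Oaz2, an antizyme that inhibits ornithine decarboxylase, fell as well (-0.82 ± 0.15). The call of Oaz2 was lost with a single array left out (control array a or 6 h array a), at an adjusted p of up to 0.057. Among nuclear pore and transport factors, 6 of 37 detected members rose (16.2%) and 1 fell (2.7%), with a median log2 change of 0.20. With median scaling 1 rose and 1 fell and rises were fewest, 3, without control array a. Ipo5, an importin, kept its call with median scaling (log2 0.79 ± 0.14, adjusted p = 0.00918), and the pore gene Nup210 (0.82 ± 0.13) and Rcc1 (0.77 ± 0.13), the exchange factor of a nuclear transport GTPase, did not. In the list of splicing factors, 8 of 72 detected members rose (11.1%) and 3 fell (4.17%), with a median log2 change of 0.08. With median scaling 1 rose and 2 fell, with the replicate letter as a block 13 rose and 6 fell, rises were fewest, 3, without control array a or 6 h array b, and falls were fewest, 0, without control array a or 6 h array a. Of aminoacyl-tRNA synthetase genes, 4 of 32 detected members rose (12.5%) and 4 fell (12.5%), with a median log2 change of -0.04. With median scaling 1 rose and 4 fell, rises were fewest, 1, without control array b or 6 h array b, and falls were fewest, 0, without control array a or 6 h array a.

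Genes of protein export showed rises of moderate size. Of the genes for entry into the secretory pathway, 9 of 29 detected members rose (31%) and 0 fell (0%), with a median log2 change of 0.31. With median scaling 2 rose and 0 fell and rises were fewest, 4, without control array a or 6 h array a or b. Spcs3 (log2 0.78 ± 0.12, adjusted p = 0.00484), a subunit of signal peptidase, Srp54a (0.97 ± 0.17), a subunit of the signal recognition particle, and Sec61a1 (0.68 ± 0.12), the channel of the translocon, were examples. The calls of Srp54a and Sec61a1 were lost with a single array left out (6 h array b), at an adjusted p of up to 0.0552. Sec61a1 was not called with median scaling. For coat proteins and Golgi traffic, 9 of 42 detected members rose (21.4%) and 2 fell (4.76%), with a median log2 change of 0.17. With median scaling 3 rose and 1 fell and rises were fewest, 4, without 6 h array b. Kdelr3 (log2 1.00 ± 0.13, adjusted p = 0.0026), a receptor that returns chaperones to the endoplasmic reticulum (ER), and Tmed9 (log2 0.66 ± 0.11, adjusted p = 0.0074), a cargo receptor, rose.

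Chaperones of the ER were among the rises too. Calr, the gene of the calcium-binding chaperone calreticulin, read 9.45 and 9.31 on control arrays a and b and 10.85 and 11.28 on 6 h arrays a and b. Hyou1, a large Hsp70-like chaperone, read 8.18 and 7.84 on control arrays a and b and 9.64 and 9.67 on 6 h arrays a and b, and in both genes the treated arrays lay above the control arrays by more than 1 log2 unit. Calr (log2 1.69 ± 0.17, adjusted p = 0.00152), Hyou1 (log2 1.64 ± 0.16, adjusted p = 0.00137), Creld2 (log2 1.72 ± 0.25, adjusted p = 0.0044), a secreted ER stress gene, and Pdia4 (log2 1.11 ± 0.19, adjusted p = 0.00759), a protein disulfide isomerase, all rose. In the list of ER chaperones and genes of the unfolded protein response, 9 of 25 detected members rose (36%) and 2 fell (8%), with a median log2 change of 0.27. The 2 falls were those of Herpud1 (-1.30 ± 0.24), which acts in ER-associated degradation, and Eif2ak3 (-1.15 ± 0.23), which encodes the sensor kinase PERK. With a single array left out, the call of Herpud1 was lost without control array b, and that of Eif2ak3 without 6 h array b. With median scaling 5 rose and 4 fell and with the replicate letter as a block 11 rose and 4 fell.

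The ER stress response element is CCAAT and CCACG parted by 9 bases. It was found in 8 of the 22 detected members of this list with a promoter, beside 0.137% of all 27025 genes. The 8 genes were Calr, Creld2, Dnajc3, Ero1b, Hsp90b1, Hspa5, Pdia6 and Syvn1. Of these, Calr, Creld2, Pdia6 (log2 1.10 ± 0.20, adjusted p = 0.00913), Dnajc3 (0.86 ± 0.16) and Hspa5 (0.84 ± 0.19) rose, while Ero1b (-0.02 ± 0.22), Hsp90b1 (0.48 ± 0.20) and Syvn1 (0.27 ± 0.14) were not called. With a single array left out, the call of Dnajc3 was lost without control array a. That of Hspa5 was lost without control array a or 6 h array a or b. Dnajc3 and Hspa5 were not called with median scaling. Stretches of 120 bases around the element are shown for 3 that rose, from RefSeq (GRCm38.p6), 5′ to 3′ along the strand of the gene, with the element in capitals.
Calr (chr8:84847025-84847144, minus strand): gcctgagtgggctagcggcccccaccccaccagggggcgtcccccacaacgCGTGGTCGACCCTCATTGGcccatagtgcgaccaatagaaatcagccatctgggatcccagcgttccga
Creld2 (chr15:88819469-88819588, plus strand): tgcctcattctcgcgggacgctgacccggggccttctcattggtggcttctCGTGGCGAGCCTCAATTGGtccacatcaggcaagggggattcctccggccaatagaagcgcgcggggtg
Pdia6 (chr12:17266440-17266559, plus strand): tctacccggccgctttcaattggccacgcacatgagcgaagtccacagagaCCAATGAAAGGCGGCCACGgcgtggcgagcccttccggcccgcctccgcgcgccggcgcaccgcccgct
In Calr and Creld2 the element reads on the strand opposite to the gene. It begins 162 bases before the start in Calr, 126 in Creld2 and 98 in Pdia6. Every match of the element also holds a CCAAT box, which 37.4% of all promoters have.

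**Figure D3:**
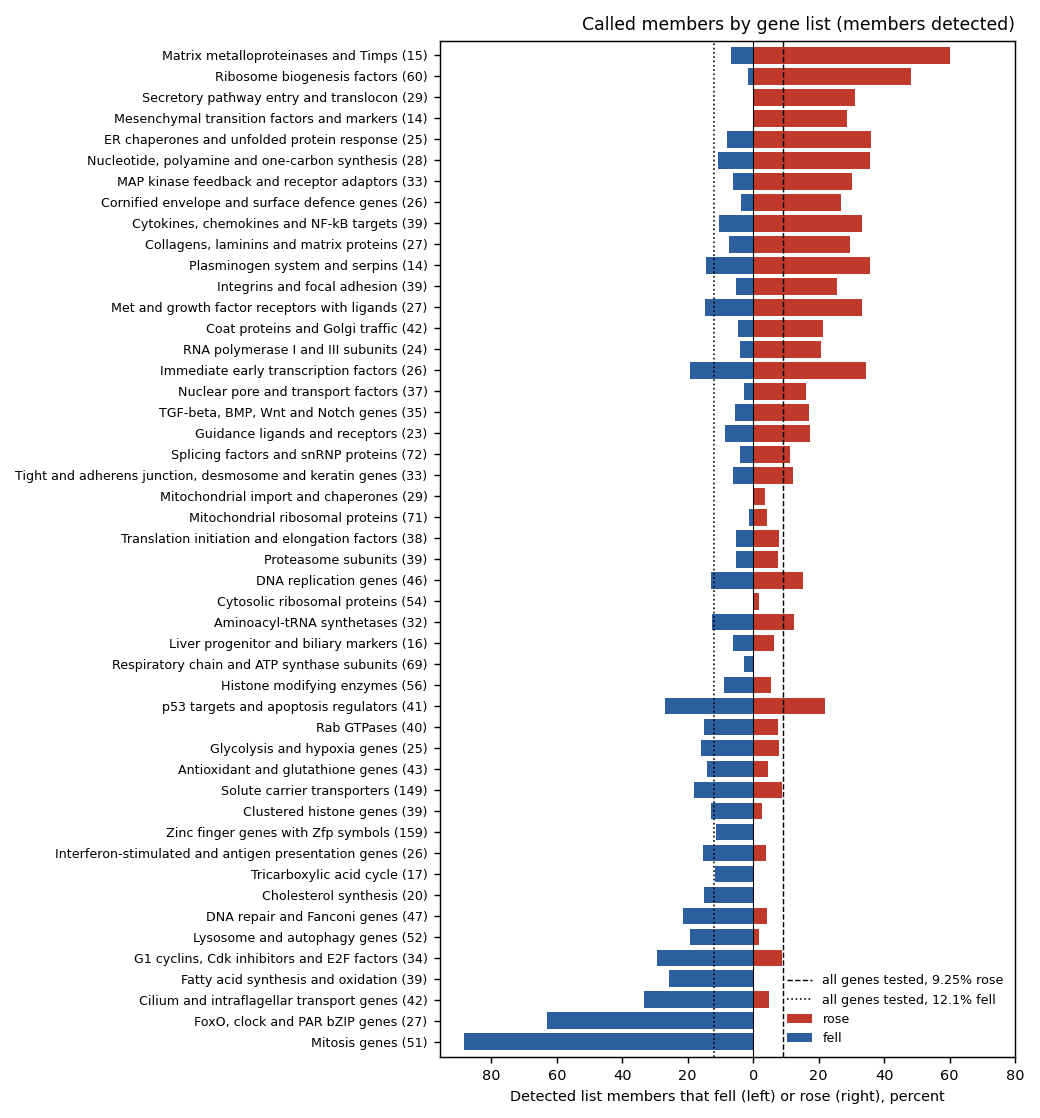
Percent of the detected members of 48 gene lists with at least 14 detected members that rose (red, right) or fell (blue, left) after 6 h, with the number detected in brackets and the shares of all genes tested as dashed (9.25%) and dotted (12.1%) lines. Metalloproteinases and ribosome biogenesis factors have the largest shares of rises, and mitosis and the FoxO and clock genes the largest shares of falls.

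The steepest fall among genes detected on all 4 arrays was that of Depp1, known as a target of FoxO transcription factors. It read 9.76 and 11.34 on control arrays a and b and 6.92 and 7.73 on 6 h arrays a and b. It fell (log2 -3.23 ± 0.60, adjusted p = 0.01), but the replicates lay far apart. The call of Depp1 was lost with a single array left out (6 h array a), at an adjusted p of up to 0.0526. Kcne2, a subunit of potassium channels, read 11.20 and 11.64 on control arrays a and b and 8.91 and 8.89 on 6 h arrays a and b, and its treated arrays nearly coincided (log2 -2.53 ± 0.20, adjusted p = 0.000821). Pdzk1ip1, which encodes a membrane partner of transporters, fell (log2 -2.53 ± 0.37, adjusted p = 0.00448), as did Trp53inp1 (log2 -2.20 ± 0.34, adjusted p = 0.0055), a p53 target that acts in autophagy and cell death, and Fam214a (-2.05 ± 0.16). Slco4a1, an organic anion and thyroid hormone transporter gene, read 13.26 and 13.16 on control arrays a and b and 10.94 and 11.49 on 6 h arrays a and b, yet a second kept probe gave -0.13 and was not called. Other steep falls were those of Cyp2s1 (-2.05 ± 0.23), a cytochrome P450 gene, Rasgrp3 (-2.03 ± 0.32), an exchange factor of Ras, Acox2 (-1.99 ± 0.27), a peroxisomal oxidase of bile acid synthesis, Gadd45a (-1.98 ± 0.32), a growth arrest gene, and Iqgap3 (-1.96 ± 0.23), a scaffold of proliferating cells.

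At 6 h, 132 of the 7940 genes were undetected on both arrays, and 72 of these were called lower. Fam107a, a stress-responsive actin regulator, read 9.24 and 8.54 on control arrays a and b and 5.85 and 5.82 on 6 h arrays a and b, at least 7.9-fold lower. Ncald, a neuronal calcium sensor gene, was at least 4.71-fold lower, and Casp4, the inflammatory caspase that senses lipopolysaccharide, at least 3.91-fold. Casp4 read 7.87 and 7.89 on control arrays a and b and 5.60 and 5.84 on 6 h arrays a and b, and both 6 h arrays were below detection. The interferon-induced gene Ifit2 was at least 3.34-fold lower, the mitotic checkpoint kinase gene Ttk at least 2.73-fold, the galactose enzyme gene Galm at least 2.34-fold, and the interferon-induced GTPase gene Gbp2b at least 2.26-fold. Mxd3 (at least 2.25-fold), a partner of Max, and Brinp3 (at least 2.16-fold) completed the 10 largest bounds with Atf3. With a single array left out, the call of Mxd3 was lost without control array a or 6 h array a or b. That of Brinp3 was lost without control array a or b or 6 h array b.

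Genes of the circadian clock, of PAR bZIP factors and of FoxO targets fell in large number. Of 27 detected members of the list, 0 rose (0%) and 17 fell (63%), with a median log2 change of -0.79, beside 9.25% and 12.1% of all genes tested. At an unadjusted p under 0.05 in limma, 1 of them was higher and 20 were lower. Falls were fewest, 7, without control array b. Tsc22d3, the gene of the glucocorticoid-induced leucine zipper and also a FoxO target, read 12.39 and 11.99 on control arrays a and b and 9.76 and 9.89 on 6 h arrays a and b. Its fall (log2 -2.37 ± 0.20, adjusted p = 0.00112) was the steepest of the list. Dbp, a PAR bZIP factor under direct control of the clock, read 11.33 and 10.86 on control arrays a and b and 9.45 and 9.11 on 6 h arrays a and b and fell (log2 -1.82 ± 0.21, adjusted p = 0.0019). Per2, a repressor arm of the clock, read 10.24 and 9.96 on control arrays a and b and 8.66 and 8.57 on 6 h arrays a and b, and both treated arrays lay below both control arrays (log2 -1.48 ± 0.14, adjusted p = 0.00126).

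The other clock repressors Per1 (-1.06 ± 0.23), Cry2 (-1.16 ± 0.23), Nr1d1 (-0.54 ± 0.13), Nr1d2 (log2 -1.43 ± 0.14, adjusted p = 0.00144), Bhlhe40 (-0.997 ± 0.24) and Ciart (-1.60 ± 0.40) fell, while the activators Clock (0.33 ± 0.12) and Arntl (-0.03 ± 0.15), which encodes Bmal1, were not called. Tef, another PAR bZIP gene, fell (-1.13 ± 0.16), and Nfil3, which binds the same sites as a repressor, was not called (0.31 ± 0.22). Of other FoxO targets, Sesn1 fell (log2 -1.05 ± 0.13, adjusted p = 0.00249), while Irs2 (0.11 ± 0.24) and Txnip (0.37 ± 0.54) were not called. The factor gene Foxo1 gave 0.08 ± 0.14. With a single array left out, the call of Per1 was lost without control array a or b or 6 h array b. That of Cry2 was lost without control array b or 6 h array b. For Nr1d1 it was control array a or 6 h array a or b. For Bhlhe40 and Ciart it was control array a or b or 6 h array a. A second kept probe of Nr1d1 gave -0.31 and was not called. The FoxO site GTAAACA was in 3 of the 24 list members with a promoter (4.05% of all genes) and the D-box TTATGTAA in 0 (1.11%). The E-box CACGTG was in 6 (8.09%, but 11.7% of detected genes that were not called).

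In lysosome and autophagy genes, calls were mostly falls. Of the list, 1 of 52 detected members rose (1.92%) and 10 fell (19.2%), with a median log2 change of -0.33. Falls were fewest, 4, without control array a or b or 6 h array a. Gabarapl1 and Map1lc3b encode members of the Atg8 family, which coat autophagosomes. Gabarapl1 read 10.96 and 10.97 on control arrays a and b and 9.22 and 9.57 on 6 h arrays a and b and Map1lc3b read 11.45 and 11.97 on control arrays a and b and 10.34 and 10.46 on 6 h arrays a and b, in both cases with the groups apart. Both fell (log2 -1.57 ± 0.17, adjusted p = 0.00165 and log2 -1.31 ± 0.20, adjusted p = 0.00484), and so did Atp6v1d (log2 -1.25 ± 0.18, adjusted p = 0.0044), a subunit of the proton pump of lysosomes. Ctsl, the gene of the secreted and lysosomal protease cathepsin L, was the 1 rise (log2 1.43 ± 0.12, adjusted p = 0.00105). The CLEAR element, known from lysosomal promoters and searched in an exact form, was in 0 of the 42 list members with a promoter. That form was rare elsewhere too, at 0.37% of all genes and 0.804% of those not called. The 0 therefore does not show that the list lacks the element. The E-box CACGTG, which the element contains, was in 15 of the 42, beside 11.7% of genes not called.

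Calls in both lists of lipid genes were falls. In fatty acid synthesis and oxidation, 0 of 39 detected members rose (0%) and 10 fell (25.6%), with a median log2 change of -0.25. Falls were fewest, 6, without control array a or 6 h array a. Limma's unadjusted p was under 0.05 for 2 higher and 18 lower members, and with the replicate letter as a block 15 fell and 0 rose. Fads1 (log2 -0.98 ± 0.11, adjusted p = 0.00178), a desaturase, and Elovl5 (log2 -0.77 ± 0.11, adjusted p = 0.00438), an elongase, both of polyunsaturated fatty acids, fell, as did Etfdh (-0.65 ± 0.11), which feeds electrons of fatty acid oxidation to the respiratory chain, and Ppargc1a (log2 -1.55 ± 0.23, adjusted p = 0.00483), the gene of the coactivator PGC-1alpha. Of cholesterol synthesis genes, 0 of 20 detected members rose (0%) and 3 fell (15%), with a median log2 change of -0.39. With median scaling 0 rose and 9 fell, with the replicate letter as a block 0 rose and 8 fell, and falls were fewest, 0, without control array a or b or 6 h array a. At an unadjusted p under 0.05, limma gave 0 higher and 8 lower members. The called ones were Lss (-0.94 ± 0.20), the cyclase that makes lanosterol, Insig2 (-0.55 ± 0.12) and Fdps (-0.70 ± 0.16), and their calls were lost with a single array left out (control array a or b or 6 h array a). Subunits of the respiratory chain and ATP synthase stayed close to 0, since 0 of 69 detected members rose (0%) and 2 fell (2.9%), with a median log2 change of -0.11, and 0 were higher and 9 lower at an unadjusted p under 0.05. With the replicate letter as a block 0 rose and 4 fell. In glycolysis and hypoxia genes, 2 of 25 detected members rose (8%) and 4 fell (16%), with a median log2 change of -0.14. With median scaling 0 rose and 4 fell, with the replicate letter as a block 3 rose and 7 fell, and falls were fewest, 1, without control array b or 6 h array a. Pfkm, the muscle type phosphofructokinase gene, fell (log2 -0.98 ± 0.15, adjusted p = 0.00603).

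Mitosis genes fell nearly throughout. Of 51 detected members of the list, 0 rose (0%) and 45 fell (88.2%), with a median log2 change of -1.12, beside 9.25% and 12.1% of all genes tested. At an unadjusted p under 0.05 in limma, 0 were higher and 49 lower, and in the fit with the replicate letter as a block 0 rose and 46 fell. Leaving out 1 array left at least 33 falls. Kif11, the motor that separates spindle poles, read 9.53 and 9.43 on control arrays a and b and 7.46 and 7.91 on 6 h arrays a and b. Melk, a kinase of dividing cells, read 7.99 and 8.04 on control arrays a and b and 6.56 and 6.28 on 6 h arrays a and b, and Cenpp, a kinetochore gene, read 9.29 and 9.31 on control arrays a and b and 7.97 and 7.95 on 6 h arrays a and b, so that in all 3 genes both treated arrays lay more than 1 log2 unit below both control arrays. Kif11 (log2 -1.79 ± 0.16, adjusted p = 0.00126), Melk (log2 -1.59 ± 0.15, adjusted p = 0.00126), Cenpp (log2 -1.34 ± 0.12, adjusted p = 0.00122) and the chromosome motor gene Kif4 (log2 -1.19 ± 0.11, adjusted p = 0.00133) had the smallest adjusted p of the list. Of the 2 other kept probes of Melk, 1 gave -1.29 and 1 gave -0.56 and was not called. The summed signal of the 51 genes was 117936 and 145671 in control cells and 65125 and 68891 at 6 h.

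Many promoters of this list hold the cell cycle homology region, read here as TTTGAA, an element known from genes expressed late in the cell cycle. It was in 28 of the 43 detected mitosis genes with a promoter, beside 20.2% of all genes and 13.1% of those not called. Of the 28, 25 fell, but so did 45 of all 51 detected members, so this count follows the list as a whole. The element was also in 15 of the 35 detected clustered histone genes with a promoter, of which 3 fell. A CCAAT box was in 27 of the 43 mitosis genes, beside 41.1% of all genes. Some other lists held it in larger shares, such as cholesterol synthesis with 16 of 17. Stretches of 120 bases are shown for Kif11, for Cdc20 (-0.85 ± 0.19), the activator of the anaphase-promoting complex, and for Cdk1 (log2 -0.70 ± 0.11, adjusted p = 0.00612), the kinase of mitotic entry, all of which fell, with the element in capitals (RefSeq, GRCm38.p6, 5′ to 3′ along the strand of the gene).
Kif11 (chr19:37376306-37376425, plus strand): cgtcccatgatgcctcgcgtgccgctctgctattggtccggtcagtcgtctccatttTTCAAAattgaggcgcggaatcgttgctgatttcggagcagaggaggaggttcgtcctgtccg
Cdc20 (chr4:118437299-118437418, minus strand): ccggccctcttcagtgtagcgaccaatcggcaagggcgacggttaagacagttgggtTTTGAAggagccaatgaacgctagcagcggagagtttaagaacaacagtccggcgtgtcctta
Cdk1 (chr10:69352865-69352984, minus strand): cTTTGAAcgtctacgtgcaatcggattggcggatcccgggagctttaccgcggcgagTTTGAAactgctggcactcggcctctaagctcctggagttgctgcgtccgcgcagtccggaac
The element nearest to the start begins 19 bases before it in Kif11, 18 in Cdc20 and 15 in Cdk1, and in Kif11 it reads on the opposite strand. The call of Cdc20 was lost with a single array left out (control array a or 6 h array a or b), at an adjusted p of up to 0.0716.

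Genes of earlier cell cycle steps had calls in both directions, beside 9.25% higher and 12.1% lower of all genes tested. Of DNA replication genes, 7 of 46 detected members rose (15.2%) and 6 fell (13%), with a median log2 change of -0.03. With median scaling 0 rose and 5 fell, rises were fewest, 1, without control array b or 6 h array a, and falls were fewest, 1, without 6 h array b. Orc6 (log2 0.60 ± 0.11, adjusted p = 0.00975), Cdt1 (0.81 ± 0.18) and Cdc6 (1.02 ± 0.22), which load the replicative helicase at origins, were higher, although with median scaling none of the 3 was called, while Dbf4 (log2 -0.97 ± 0.11, adjusted p = 0.00197), which activates the kinase that fires origins, fell. The calls of Cdt1 and Cdc6 were lost with a single array left out (control array b or 6 h array a or b), at an adjusted p of up to 0.0926. Among G1 cyclins, Cdk inhibitors and E2F factors, 3 of 34 detected members rose (8.82%) and 10 fell (29.4%), with a median log2 change of -0.03. With median scaling 1 rose and 9 fell, with the replicate letter as a block 7 rose and 11 fell, rises were fewest, 0, without control array b, and falls were fewest, 5, without 6 h array b. The inhibitor genes Cdkn2d (log2 -1.43 ± 0.23, adjusted p = 0.00627), Cdkn2c (log2 -1.18 ± 0.20, adjusted p = 0.00765) and Cdkn2b (log2 -0.99 ± 0.18, adjusted p = 0.00918) and the retinoblastoma gene Rb1 (log2 -0.72 ± 0.11, adjusted p = 0.00627) fell, and Ccne2, a cyclin of S phase entry, was higher (1.30 ± 0.32). The call of Ccne2 was lost with a single array left out (control array a or b or 6 h array a), at an adjusted p of up to 0.122.

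Of DNA repair genes, 2 of 47 detected members rose (4.26%) and 10 fell (21.3%), with a median log2 change of -0.22, beside the same 9.25% and 12.1%. With the replicate letter as a block 5 rose and 11 fell and falls were fewest, 6, without control array a. Chek2 (log2 -1.69 ± 0.21, adjusted p = 0.0026), the checkpoint kinase, Brca1 (log2 -1.32 ± 0.22, adjusted p = 0.00708), Rad54l (-0.96 ± 0.14), both of homologous recombination, and Xrcc1 (-0.68 ± 0.11), of single-strand break repair, fell. Ercc1, a subunit of the nuclease of nucleotide excision repair, moved the other way. It read 9.73 and 9.62 on control arrays a and b and 11.52 and 11.73 on 6 h arrays a and b, with the groups more than 1 log2 unit apart (log2 1.95 ± 0.13, adjusted p = 0.000639). Its neighbour Cd3eap, a subunit of RNA polymerase I, was also higher (0.90 ± 0.24), and neighbouring genes can share transcribed sequence, so the Ercc1 value is uncertain to that extent. Ung, the uracil glycosylase gene, rose as well (1.67 ± 0.36), but its other kept probes gave 1.70 and 0.52. With a single array left out, the call of Ung was lost without control array b or 6 h array a or b. That of Cd3eap was lost without control array a or b or 6 h array a. Cd3eap was not called with median scaling. For clustered histone genes, whose near-identical copies a probe may not tell apart, 1 of 39 detected members rose (2.56%) and 5 fell (12.8%), with a median log2 change of -0.18. With the replicate letter as a block 2 rose and 13 fell and falls were fewest, 0, without 6 h array b.

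**Figure D4:**
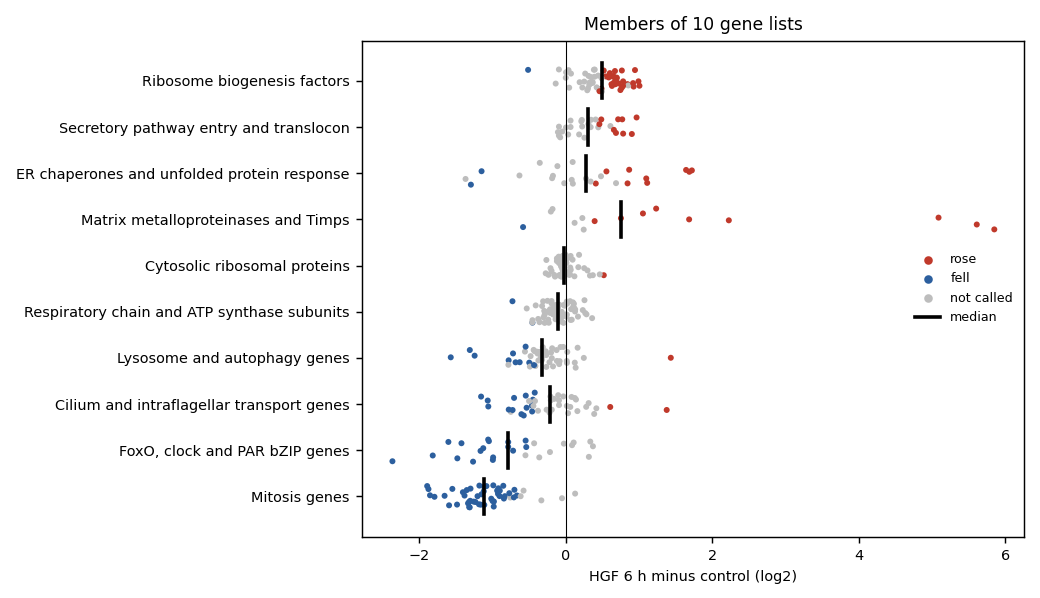
Log2 difference between HGF 6 h and control for every detected member of 10 gene lists, 1 point per gene, coloured by its call, with the list's median as a black bar. Mitosis genes lie almost wholly to the left of 0 around -1.12, FoxO and clock genes around -0.79, and ribosome biogenesis factors to the right around 0.49, while both lists of ribosomal and respiratory proteins lie around 0.

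Genes of the primary cilium and of intraflagellar transport were mostly lower where called. Of the list, 2 of 42 detected members rose (4.76%) and 14 fell (33.3%), with a median log2 change of -0.22. Falls were fewest, 3, without 6 h array b. Bbs9, a subunit of the BBSome, which carries cargo in the cilium, read 9.03 and 9.11 on control arrays a and b and 7.99 and 7.84 on 6 h arrays a and b and fell (log2 -1.16 ± 0.12, adjusted p = 0.00144). Ift122 (log2 -1.06 ± 0.17, adjusted p = 0.00705) and Ift80 (log2 -1.07 ± 0.18, adjusted p = 0.008), of the transport particles that move along the axoneme, fell too. Bbs12, which helps the BBSome assemble, was higher (1.38 ± 0.27). The call of Bbs12 was lost with a single array left out (control array b or 6 h array a), at an adjusted p of up to 0.0569.

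Regulators of apoptosis and targets of p53 moved both ways. In that list, 9 of 41 detected members rose (22%) and 11 fell (26.8%), with a median log2 change of -0.09. With median scaling 3 rose and 13 fell, rises were fewest, 2, without control array b, and falls were fewest, 6, without control array b. Bcl2l11, the gene of the death-promoting protein Bim, rose (log2 0.87 ± 0.14, adjusted p = 0.00604), and so did the stress gene Gadd45g (1.31 ± 0.24), whereas its relative Gadd45a, Trp53inp1, Casp4 and Sesn1 fell as given above. The call of Gadd45g was lost with a single array left out (control array b), at an adjusted p of up to 0.0515. Of antioxidant and glutathione genes, 2 of 43 detected members rose (4.65%) and 6 fell (14%), with a median log2 change of -0.07. Falls were fewest, 3, without control array a or b. Both subunits of the enzyme that starts glutathione synthesis, Gclm (log2 -0.78 ± 0.11, adjusted p = 0.00438) and Gclc (log2 -0.90 ± 0.16, adjusted p = 0.0085), fell together with Me1 (-0.75 ± 0.13), a source of NADPH, and the mitochondrial peroxiredoxin gene Prdx3 rose (log2 0.73 ± 0.12, adjusted p = 0.00664). Of interferon-stimulated and antigen presentation genes, 1 of 26 detected members rose (3.85%) and 4 fell (15.4%), with a median log2 change of -0.22. With the replicate letter as a block 1 rose and 7 fell and falls were fewest, 2, without control array a. Parp14 fell among them (log2 -0.80 ± 0.13, adjusted p = 0.00596).

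Transporters and traffic regulators had calls in both directions, beside 9.25% higher and 12.1% lower of all genes tested. Of solute carriers, 13 of 149 detected members rose (8.72%) and 27 fell (18.1%), with a median log2 change of -0.04. With median scaling 5 rose and 28 fell, rises were fewest, 4, without 6 h array a, and falls were fewest, 13, without control array a. Slc6a9 (log2 -1.21 ± 0.16, adjusted p = 0.00303), a glycine transporter, Slc1a4 (log2 -1.67 ± 0.24, adjusted p = 0.00417), of neutral amino acids, and Slc7a7 (-0.84 ± 0.13), of basic ones, fell, while Slc19a1 (log2 0.95 ± 0.12, adjusted p = 0.00295), the folate carrier, and Slc20a2 (log2 1.06 ± 0.13, adjusted p = 0.0026), a phosphate carrier, rose. Of Rab GTPases, 3 of 40 detected members rose (7.5%) and 6 fell (15%), with a median log2 change of -0.10. With median scaling 1 rose and 4 fell, with the replicate letter as a block 5 rose and 8 fell, rises were fewest, 1, without control array b or 6 h array a, and falls were fewest, 1, without control array a. Of 159 detected zinc finger genes with Zfp symbols, 0 rose in limma's test and 18 fell (11.3%), close to the 12.1% of all genes tested, and in the fit with the replicate letter as a block 4 rose and 24 fell. Unadjusted, 6 were higher and 32 lower at p under 0.05. Falls were fewest, 6, without control array a or 6 h array b. Zfp704 (log2 -1.14 ± 0.13, adjusted p = 0.00178) and Zfp810 (log2 -1.13 ± 0.14, adjusted p = 0.0026) were the most clearly lower.

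Several housekeeping lists had smaller shares of called members than the 21.4% of all genes tested. Proteasome subunits held 3 rises and 2 falls among 39 detected members, translation factors 3 rises and 2 falls among 38 detected members, mitochondrial import factors 1 rise and 0 falls among 29 detected members, tricarboxylic acid cycle genes 0 rises and 2 falls among 17 detected members and histone modifying enzymes 3 rises and 5 falls among 56 detected members. For proteasome subunits with median scaling 1 rose and 0 fell and rises were fewest, 0, without 6 h array b. For translation factors with median scaling 1 rose and 2 fell, with the replicate letter as a block 5 rose and 2 fell, and rises were fewest, 1, without control array b or 6 h array b. For histone modifying enzymes with median scaling 0 rose and 6 fell, with the replicate letter as a block 7 rose and 6 fell, rises were fewest, 0, without 6 h array b, and falls were fewest, 2, without control array a or 6 h array b. Eif3j1 (log2 0.85 ± 0.12, adjusted p = 0.00438), of the initiation factor eIF3, and Pdk2 (log2 -0.97 ± 0.17, adjusted p = 0.0085), a kinase that inhibits pyruvate dehydrogenase, were among their members that kept a call with each array left out in turn and with median scaling. Among progenitor and biliary markers, Foxa2, a transcription factor of liver development, fell (-1.01 ± 0.22) and the mucin gene Muc1 was higher (0.51 ± 0.13), and the other 14 detected ones were not called. Among hepatocyte markers Hpx, the gene of the haem-binding plasma protein hemopexin, rose (log2 1.68 ± 0.20, adjusted p = 0.00232). With a single array left out, the call of Foxa2 was lost without control array a or 6 h array b. That of Muc1 was lost without control array a or b or 6 h array a or b. Muc1 was not called with median scaling.

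Sequence elements of promoters were compared between called and uncalled genes as a description. Shares are of genes with a promoter in the set, and a gene counted where any of its promoters held the element. The AP-1 site was in 6.99% of higher genes, 4.77% of lower genes and 4.69% of those not called. For the ER stress response element these shares were 0.976%, 0.122% and 0.0784%, or 6 of 615, 1 of 818 and 4 of 5099 genes. Of the 6 higher genes, 5 are the members of the ER chaperone list given above, so the share largely repeats that list. The cell cycle homology region was in 12.8% of higher genes and 19.1% of lower genes, beside 13.1% of those not called. For the E-box the shares were 13.2% and 14.2%, beside 11.7%, and for the CCAAT box 40.8% and 50.7%, beside 43.5%. The cyclic AMP response element was rarer in called genes, at 2.93% and 2.2%, beside 4.04%. The FoxO site gave 3.09% and 3.18%, beside 3.22%. The D-box gave 0.976% and 0.733%, beside 0.588%, and the CLEAR element 0.813% and 0.978%, beside 0.804%.

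Whether the 6 h levels differed from those at the other times was tested in the same fit, in which 17.4% of all genes tested differed between 6 h and 1 h and 13.2% between 6 h and 24 h. Between 1 h and control, 4.78% differed. Between 24 h and control, 0 genes passed limma's adjusted threshold and 1626 were at an unadjusted p under 0.05, and with the replicate letter as a block 429 passed. Il24 was near its control level at 1 h (6.31 and 6.15) and stood at 8.27 and 7.18 at 24 h, both below 6 h (adjusted p = 0.000229 and 0.00164). Fxyd5 likewise was higher at 6 h than at 1 h and 24 h (adjusted p = 0.000702 and 0.00226). Lif followed another course, since it read 11.86 and 12.22 at 1 h, above its 6 h level (adjusted p = 4.54e-05). Kif11 had levels of 8.44 and 8.45 at 1 h and 9.42 and 9.25 at 24 h, and was lower at 6 h than at both (adjusted p = 0.0207 and 0.00194). Per2 read 11.37 and 11.22 at 1 h and 9.88 and 9.77 at 24 h, so that the 6 h arrays lay below every other array (adjusted p = 0.000134 and 0.00291). Gabarapl1 and Bbs9 were lower at 6 h than at 1 h (adjusted p = 0.0022 and 0.00174) and than at 24 h (adjusted p = 0.00711 and 0.00672).

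**Figure D5:**
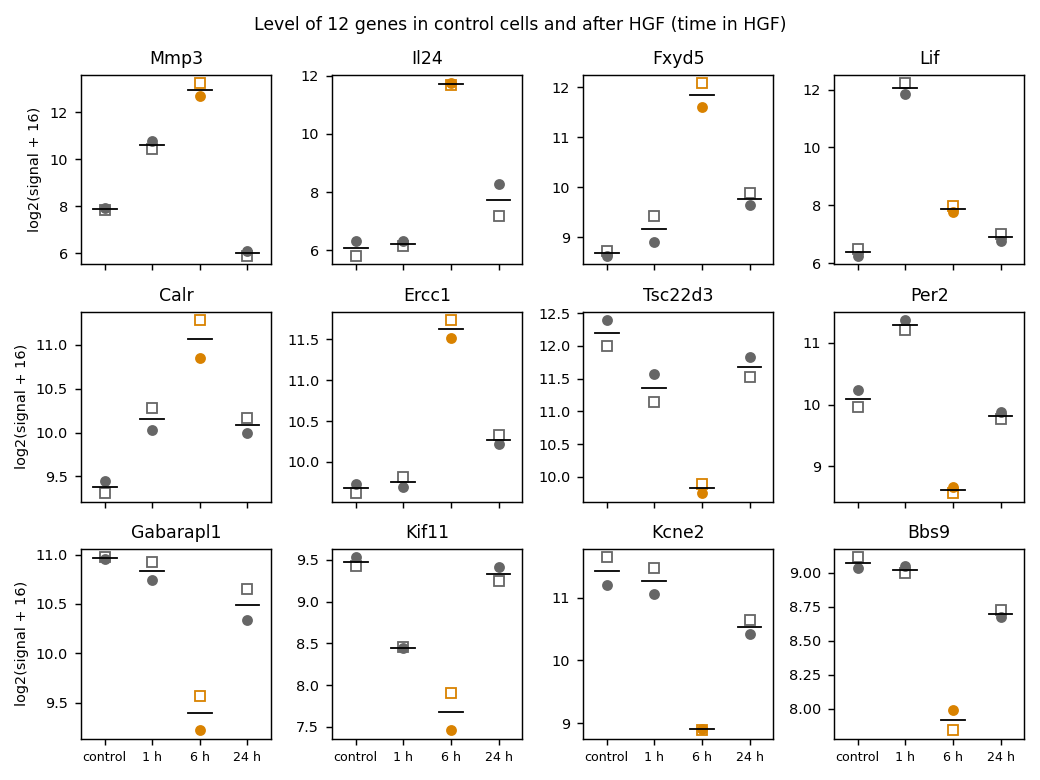
Levels of 12 genes on the log2(corrected signal + 16) scale in control cells and after 1, 6 and 24 h in HGF, with replicate a as a filled circle, replicate b as an open square, the mean as a bar and the 6 h arrays in orange. The y axes do not start at 0 and differ between genes. The 12 genes were picked by hand and do not stand for all genes. Both 6 h arrays lie beyond all other arrays in 11 of the 12 genes, and in Lif the 1 h arrays lie higher. How often this holds over all genes tested was not counted. Of those, 17.4% differed between 6 h and 1 h and 13.2% between 6 h and 24 h.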

How the data were processed

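The comparison used 4 of 8 arrays for its groups and all 8 for its error. The deposited non-normalized table holds a raw signal intensity per probe, and per its values it is neither background subtracted nor scaled between arrays. It also holds the authors' detection p-value, set against negative control beads. The submitters' processing notes name GenomeStudio 1.9.0. The authors' own normalized intensity served as an alternative, with a method not given in the sources used here.

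In limma 3.58.1 (R 4.3.3), intensity was corrected by normexp from the detection p-values (offset 16), and arrays were quantile normalized before log2 values were taken. Probes were kept where detected at p under 0.05 on both arrays of a group (12024, of which 11325 had a symbol). The platform annotation gave 23978 probes 1 symbol, 0 several and 1719 none. A current gene table matched 23962 of these by gene ID, and 0 symbols changed. The brightest kept probe stood for its gene. Another probe was called the opposite way for Bcl2l12 and Tdrd3. Groups were compared by lmFit and eBayes (4 residual degrees of freedom), with Benjamini-Hochberg adjustment over 8183 genes. Errors are SE of the fit over the 8 arrays, 2 per group, whose number limits the precision. A gene undetected on both arrays of a group is given only an "at least" fold. There the dim group is set on each array to its own value or, if that is lower, to the dimmest detected signal, and the group means are compared. On simulated data for this comparison, over 8183 genes, 69 of 100 genes changed by 1 log2 unit and 94 of 100 changed by 2 were recovered, with 9 false calls. The simulated noise was independent between arrays, few genes were changed, and no scaling step was included. These figures therefore do not cover a difference shared by replicates or the choice of scaling.

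The members, the 51 gene lists and the searched motifs were chosen with earlier results of these data known, and 1 of the lists is not reported here. Lists are described by counts and medians, without a test. Named genes are the 12 steepest rises and falls, the 10 largest bounds each way, and up to 4 called members per list and direction. Those list members had the smallest adjusted p, and some genes of the rule are left out for length. The steepest genes were taken among called genes detected on all 4 arrays whose 2 groups did not overlap. Called genes named outside this rule were chosen after their values were seen: Mmp9, Mmp24, Adam8, Cxcl5, Egfr, Ghr, Jun, the clock genes beyond Per2, Nr1d2 and Dbp, Tef, Dnajc3, Hspa5, Pdia6, Cdc20, Cdk1, Cd3eap, and Chka, Fam20c, Plekho2, Ranbp3l, Tob1, Clca3b and Sh3kbp1. Genes given as not called were likewise chosen after their values were seen. Promoters (250 bases before to 50 after a start) came from RefSeq, GRCm38.p6, and a gene could have several (32851 promoters of 27025 genes). In counts of lists and of called genes, a gene held an element where any of its promoters did. The motifs were searched on both strands: the AP-1 site TGAGTCA, the cyclic AMP response element TGACGTCA, the ER stress response element (CCAAT and CCACG parted by 9 bases), the cell cycle homology region TTTGAA, the CCAAT box, the E-box CACGTG, the FoxO site GTAAACA, the D-box TTATGTAA and the CLEAR element, which contains the E-box as the ER element contains CCAAT.

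That a replicate letter marks the same repeat in each group is implied by the labels. The difference of replicate a minus b correlated across genes between groups at 0.194 to 0.443, so the letter pairs the arrays to some degree. A fit with it as a block was made as an alternative. Calls, errors and adjusted p are of the fit without the block unless the block is named. Leaving out single arrays was done without the block only. Alternatives were that block, other background corrections, median scaling, the authors' normalized table, other filters, averaged probes, a fit of the 4 arrays alone, and each array left out.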

Additional observations from a re-analysis of the deposited data

Results flagged for a closer look

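The genes below differed between 6 h and another time by the test of that difference in the same fit (limma, adjusted over all genes tested). All these differences share the 6 h arrays, and 17.4% of all genes tested differed between 6 h and 1 h and 13.2% between 6 h and 24 h. Levels were higher at 6 h than at 1 h by log2 2.35 in Mmp3, 2.28 in Mmp10, 5.49 in Il24, 2.68 in Fxyd5, 2.67 in Wnt7a, 1.27 in Hyou1, 0.91 in Calr and 1.87 in Ercc1, and at least 4.65-fold in Igfbp3, which was undetected at 1 h. The adjusted p lay between 0.000134 and 0.0137, and in each gene both 6 h arrays lay above both 1 h arrays. Against 24 h, the 6 h level was higher by 6.97 in Mmp3, 4.82 in Mmp13, 3.99 in Il24, 2.09 in Fxyd5, 1.85 in Wnt7a, 1.72 in Igfbp3, 1.23 in Hyou1, 0.98 in Calr and 1.35 in Ercc1, and at least 53.9-fold in Mmp10, which was undetected at 24 h, at adjusted p from 1.06e-05 to 0.0119. Among genes that were lower than control at 6 h, the difference between 6 h and 1 h was -1.53 in Tsc22d3, -2.37 in Kcne2, -2.02 in Slco4a1, -0.76 in Kif11 and -1.44 in Gabarapl1, and that between 6 h and 24 h was -1.85 in Tsc22d3, -1.64 in Kcne2, -1.81 in Slco4a1, -1.65 in Kif11 and -1.10 in Gabarapl1.

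Other genes were called on opposite sides of control at 1 h and at 6 h, in comparisons that share the control arrays. Higher than control at 1 h and lower at 6 h were Atf3, Bcl3, Bhlhe40, Nr1d1, Per1 and Per2, which encode transcription factors or cofactors, Chka, the choline kinase gene, Fam20c, a kinase gene of the secretory pathway, Tob1, an antiproliferative gene, Plekho2 and Ranbp3l. Their 6 h minus 1 h differences were -1.62 in Bcl3, -2.68 in Bhlhe40, -1.87 in Chka, -1.51 in Fam20c, -1.61 in Nr1d1, -2.68 in Per1, -2.67 in Per2, -2.10 in Plekho2 and -1.94 in Tob1, while Atf3 and Ranbp3l, both undetected at 6 h, were at least 97.6-fold and 2.34-fold lower (adjusted p from 0.000134 to 0.00206). Clca3b, Rab7b and the endocytic adaptor gene Sh3kbp1 were lower than control at 1 h and higher at 6 h, with differences of 1.77 in Clca3b, 1.47 in Rab7b and 2.00 in Sh3kbp1 (adjusted p from 0.000229 to 0.00194). Tob1, for example, stood at 1.32 against control at 1 h and at -0.62 at 6 h, and Sh3kbp1 at -0.53 and 1.46. The 6 h calls of Atf3, Bcl3, Bhlhe40, Nr1d1, Per1, Ranbp3l, Tob1 and Clca3b were lost with a single one of the arrays left out, at an adjusted p of up to 0.187.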

How the results depend on the processing

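Of 321 called genes that the naming rule takes or the text names, 0 reversed under any alternative in which they were tested, and 158 kept their call with each array left out in turn. The replicate letter as a block gave 1019 higher and 1325 lower genes, with all 757 and 992 calls of the fit without it among them, and ended no named call. Median scaling gave 322 higher genes. At least 2-fold changes were called for 122 higher and 153 lower genes without background correction, and for 121 and 151 in the authors' normalized table. With single arrays left out, 380 to 709 genes were higher and 474 to 903 lower. The cause was not tested, except that leaving out an array also leaves fewer samples. Only the 4 arrays compared gave 524 and 667, and no filter 654 and 828 of 16593 genes. Median scaling ended 72 named calls, the 4 arrays alone 60, no filter 34, averaged probes 17 and the others with all arrays at most 5, of 313 tested with detection p under 0.01. Signal over background limits the dim genes: the median standard error was 0.198 in the dimmest and 0.135 in the brightest group.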
